A study of Mus musculus with 4 samples.

Results

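The regulators of G-protein signaling Rgs1, Rgs2 and Rgs10 were 3 of the 11820 genes measured in single colonic macrophages and monocytes of chow-fed and HFD-fed mice. They were chosen by symbol, with their pattern over macrophage differentiation and their difference between diets in these data already known, so both are given as descriptions, and where a fit over all genes called a member nothing is read from the call. Cells came from the colonic lamina propria of male C57/Bl6N wild-type mice that were 6 to 7 weeks old. Chow replicates 9 and 11 stayed on normal chow, and HFD replicates 1 and 3 received a coconut-based HFD with 60% fat, both for 1 week. Live CD45+ Lin- CD11b+ CD24- cells with Ly6C or CD64 on their surface were sorted, each mouse filled 1 well, and transcripts were counted as unique molecular identifiers (UMIs), which count each captured RNA molecule once. The mice are the replicates (n = 2 per diet), and both cells and stages of 1 mouse share that mouse.

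RGS proteins accelerate GTP hydrolysis by the alpha subunits of heterotrimeric G proteins and thereby shorten the signal of G-protein-coupled receptors. Macrophages carry many such receptors, for chemokines, complement fragments, nucleotides and lipids. RGS1 acts on Gi and Gq subunits and is known for dampening chemokine receptor signals in leukocytes, RGS2 acts preferentially on Gq, and RGS10 acts on Gi-family subunits and is known from microglia and macrophages.

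All 3 genes lie on the minus strand of GRCm38 in the GENCODE M21 annotation. Rgs1 (ENSMUSG00000026358) spans chr1:144242296-144249242 with 9 annotated transcripts and Rgs2 (ENSMUSG00000026360) chr1:143999338-144004161 with 4, and 238 kb lie between both genes. Rgs10 (ENSMUSG00000030844) spans chr7:128373621-128418758 with 6 transcripts and overlaps the annotated gene Gm15503 on the same strand, so UMIs of both could be confused. Because members were lower together upon HFD, the promoters of Rgs2 and Rgs10 are printed, the 2 members with an entry in the promoter table used here (RefSeq starts, GRCm38.p6). Each is given as the 250 bases before the RefSeq start, at chr1:144004150-144004399 and chr7:128418173-128418422. The stretch of Rgs10 lies inside the GENCODE gene, whose outermost start is farther upstream, and that of Rgs2 overlaps the first bases of the GENCODE gene. Both are rich in G and C (72.4% and 76.4%), and capitals mark the only motif match found.
Rgs2: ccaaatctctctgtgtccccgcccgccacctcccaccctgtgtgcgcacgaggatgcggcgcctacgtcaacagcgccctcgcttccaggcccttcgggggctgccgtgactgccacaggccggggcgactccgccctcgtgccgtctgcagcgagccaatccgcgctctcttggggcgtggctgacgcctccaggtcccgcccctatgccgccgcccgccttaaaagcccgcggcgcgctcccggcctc
Rgs10: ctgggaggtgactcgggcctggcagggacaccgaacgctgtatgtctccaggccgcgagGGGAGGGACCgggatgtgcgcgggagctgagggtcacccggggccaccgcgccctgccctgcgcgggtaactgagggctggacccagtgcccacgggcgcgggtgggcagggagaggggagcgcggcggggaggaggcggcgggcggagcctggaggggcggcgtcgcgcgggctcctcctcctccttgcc
Motifs were searched on both strands from 250 bases before to 50 bases after the start. The cAMP response element TGACGTCA, the AP-1 motif TGANTCA, the STAT motif TTCNNNGAA and the interferon response motif had no match in either promoter, and 1.79%, 7.81%, 8.3% and 3.44% of the 32851 promoters in the table held them. The NF-kB motif, whose match is in capitals, was found once in Rgs10, 191 bases before the start, and 20.7% of all promoters held a match. A match is a description of these letters and not of binding.

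Cells were placed along the differentiation of colonic macrophages by genes other than the members. Cells with at least 23.5 C1q UMIs (C1qa, C1qb and C1qc) per 10000 were called resident macrophages, because C1q marks mature tissue macrophages. Cells below that limit were called monocytes with at least 1 Ly6c2 UMI and fewer than 148 MHC II UMIs (H2-Aa, H2-Ab1 and H2-Eb1) per 10000, transitional cells with Ly6c2 and MHC II, and intermediate macrophages with MHC II but no Ly6c2. The median C1q level was 3.425, 4.342, 4.786 and 184.1 per 10000 in monocytes, transitional cells, intermediate and resident macrophages, and the median MHC II level 30.86, 395.4, 494.8 and 692.4. The limits were set by script, and 389 of 5420 cells (7.18%) lay within a factor of 1.5 of one. Monocytes numbered 66 and 68 in the chow-fed and 283 and 338 in the HFD-fed mice, and resident macrophages 764 and 1849 against 458 and 653. Intermediate macrophages numbered 25, 27, 98 and 170 in chow replicates 9 and 11 and HFD replicates 1 and 3, and transitional cells 3, 19, 89 and 319, so the latter received values without a fit. The 4 mice gave 904 to 2002 cells and 3824228 to 7947893 UMIs, with medians of 3266 to 3926 UMIs per cell. Of the defining markers of the sort, Ptprc (CD45) stood at 576.3 to 646.3 CPM in resident macrophages, while Itgam, which encodes CD11b, was near 0 at 0.3567 to 3.768 CPM.

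Rgs1 was the member most strongly graded over differentiation. In monocytes Rgs1 stood at 526 and 587 CPM (UMI counts summed over the cells of a mouse and scaled to 1 common total) in chow replicates 9 and 11 and at 255 and 344 CPM in HFD replicates 1 and 3. In resident macrophages the same mice held 6557, 5523, 2293 and 2419 CPM. The level was higher at each step from monocytes over transitional and intermediate to resident cells in each of the 4 mice, and resident macrophages exceeded monocytes 12.46-fold, 9.409-fold, 9.005-fold and 7.031-fold. In transitional cells Rgs1 reached 1311, 819, 824 and 898 CPM, and in intermediate macrophages 1472, 1976, 1288 and 1052 CPM. The transitional value of chow replicate 9 rests on 3 cells and 17 Rgs1 UMIs, so its place in the order is uncertain. Within a diet no neighboring stages overlapped, although transitional (1065 ± 348 CPM, SD, n = 2) and intermediate cells (1724 ± 356 CPM, SD, n = 2) of chow-fed mice differed by less than the sum of their SDs.

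Rgs10 was also lowest in monocytes and highest in resident macrophages in each of the 4 mice. Monocytes held 378, 537, 330 and 299 CPM of Rgs10 in chow replicates 9 and 11 and HFD replicates 1 and 3, and resident macrophages 1049, 1104, 741 and 782 CPM. The ratio of both stages was 2.776, 2.057, 2.243 and 2.611 in these mice. Transitional cells (540, 994, 438 and 467 CPM) and intermediate macrophages (569, 617, 334 and 484 CPM) lay between, and their order differed between mice.

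Rgs2 followed no such grade. Its level was 1397, 858, 728 and 1016 CPM in monocytes, 1080, 1150, 603 and 712 CPM in transitional cells, 792, 1107, 634 and 703 CPM in intermediate macrophages and 1286, 1542, 668 and 747 CPM in resident macrophages. Monocytes were the highest stage in 3 mice and the lowest in chow replicate 11, and the ratio of resident macrophages to monocytes ran from 0.7352 to 1.798. In the edgeR fit with a term for each mouse, the log2 fold change of monocytes against resident macrophages was -3.32 (SE 0.19) for Rgs1, -1.38 (SE 0.14) for Rgs10 and -0.14 (SE 0.20) for Rgs2, with 17.4% of the 5030 genes of that fit called.

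**Figure D1:**
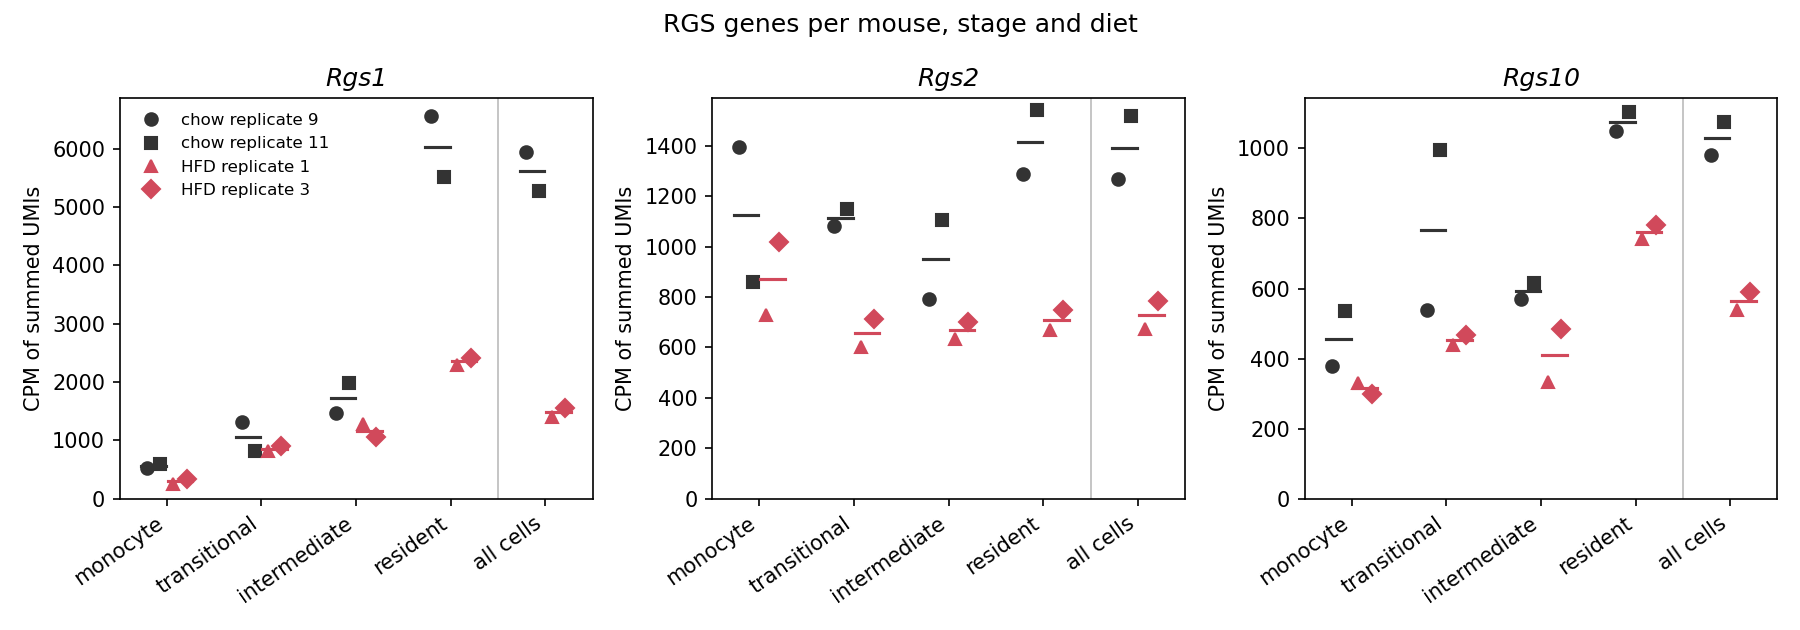
CPM of Rgs1, Rgs2 and Rgs10 (y axis, from 0, each gene on its own scale) per mouse for the 4 stages and for all cells (x axis), with chow-fed mice in black, HFD-fed mice in red and short lines at the mean of both mice of a diet. Rgs1 climbs from 255 to 587 CPM in monocytes to 2293 to 6557 CPM in resident macrophages, and in resident macrophages both HFD-fed mice lie below both chow-fed mice for each gene.

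Upon HFD, resident macrophages held less of each member. The mean Rgs1 level was 6040 ± 731 CPM (SD, n = 2) on chow and 2356 ± 89.3 CPM (SD, n = 2) upon HFD, a 2.564-fold difference. Rgs2 stood at 1414 ± 181 CPM on chow against 708 ± 56.0 CPM (1.998-fold), and Rgs10 at 1076 ± 38.6 CPM against 761 ± 29.1 CPM (1.414-fold). Both HFD-fed mice lay below both chow-fed mice for all 3 genes. The share of all genes with such a separation is not given, here or for other stages, bands and marker lists. Nothing about the members is read from these separations. On the TMM-scaled log2 scale of the edgeR fit the differences were -1.51 (SE 0.14), -1.15 (SE 0.14) and -0.65 (SE 0.12). The fit called 3 of 3 members in resident macrophages, where it called 10.5% of 5065 genes, and since the members were chosen for this contrast nothing is read from the count. With clusters in place of the C1q limit it called 0 of 3 members and 10 genes in all. The log2 differences were then -0.29 for Rgs1, -0.74 for Rgs2 and -0.12 for Rgs10. With any 1 mouse left out, so that 1 diet held 1 mouse, they stayed between -1.65 and -0.63. Some member calls were lost in these fits, and the share of all genes called in them is not given.

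In monocytes the differences of Rgs1 and Rgs2 were smaller than in resident macrophages, and that of Rgs10 was of like size. Rgs1 was 1.859-fold lower upon HFD (log2 -1.01, SE 0.21) and Rgs10 1.452-fold lower (-0.65, SE 0.21), without overlap between diets. B and plasma cell markers (Igha, Jchain and Cd79a) summed to 40600 and 26860 CPM in monocytes on chow against 8593 and 6721 CPM upon HFD. Their part in the monocyte differences was not tested. Epithelial markers (Krt8, Krt19, Reg3b and Epcam) summed to 523.6 CPM in the monocytes of HFD replicate 3 against 0 to 4.586 CPM in the other 3 mice. Without that mouse the log2 differences were -1.24 for Rgs1, -0.58 for Rgs10 and -0.74 for Rgs2. With any other mouse left out, Rgs2 ran from -0.79 to -0.09, weakest without chow replicate 9. Rgs10 ran from -0.88 to -0.37, weakest without chow replicate 11. The Rgs2 values of the diets overlapped (1.292-fold, log2 -0.48, SE 0.22), because chow replicate 11 lay below HFD replicate 3, and HFD replicate 1 lay below both chow-fed mice. The fit called Rgs1 alone, 1 of 3 members, where it called 1.08% of 4544 genes, and nothing is read from this count either. The call was lost with DESeq2, with RLE factors, with lower limits, with at least 2 Ly6c2 UMIs, with clusters, without doublets and without HFD replicate 1. In these fits the log2 difference of Rgs1 was -1.09 to -1.01, except -0.81 without HFD replicate 1. In the monocytes without any C1q UMI, a subset chosen after the data were seen, Rgs1 overlapped between diets at 431.6 and 353.8 CPM on chow and 314.2 and 400.9 CPM upon HFD, with 6 cells in chow replicate 11. Rgs10 also overlapped there, at 327 and 566.1 against 331.2 and 337.2 CPM. Rgs2 did not, at 1504 and 990.7 against 976.7 and 824.3 CPM. The median C1q level of monocytes was 2.913 and 11.67 per 10000 on chow and 2.115 and 3.922 upon HFD. Its part in the Rgs1 difference was not tested.

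In intermediate macrophages Rgs1 was 1.474-fold, Rgs2 1.42-fold and Rgs10 1.45-fold lower upon HFD. The log2 differences were -0.58 (SE 0.23), -0.53 (SE 0.25) and -0.55 (SE 0.27), and for each gene both HFD-fed mice lay below both chow-fed mice. Here 0 of 3 members were called, where the fit called 2.31% of 4588 genes. The median log2 difference of all genes was 0.11, and 20.16%, 22.12% and 21.12% of genes had a lower value than Rgs1, Rgs2 and Rgs10. The chow values rest on 25 and 27 cells. Dendritic cell markers, such as Cd209a, summed to 569.5 and 363.6 CPM on chow and 1083 and 781.9 CPM upon HFD. Monocyte markers summed to 2236 and 3984 against 5994 and 7075 CPM. Most of the HFD sum was Plac8 (930.6 and 1976 CPM on chow, 4850 and 5489 CPM upon HFD). Of the 7 monocyte markers, 3 were higher in both HFD-fed mice and 2 were lower, among them Ccr2. Resident markers, such as C1qa, summed to 1458 and 2039 against 594.7 and 752.1 CPM. Of 22 immediate-early and heat-shock genes, 13 were lower in both HFD-fed mice and 1 was higher. The edgeR test called 2 of the 22 lower and DESeq2 called 0, while 12 had an unadjusted p under 0.05 in edgeR. The part of these markers in the member differences was not tested. In transitional cells, given as values only, the diets overlapped for Rgs1 (1.238-fold), whereas Rgs2 (1.696-fold) and Rgs10 (1.695-fold) were lower in both HFD-fed mice.

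Over all cells of a mouse the Rgs1 difference was larger than within any stage. Rgs1 stood at 5944 and 5282 CPM on chow and at 1404 and 1562 CPM upon HFD, a 3.785-fold difference (log2 -2.14, SE 0.12). Rgs2 (1268, 1516, 672 and 786 CPM, 1.91-fold, log2 -1.16, SE 0.14) and Rgs10 (982, 1076, 539 and 591 CPM, 1.821-fold, log2 -1.09, SE 0.11) also did not overlap. The fit called 3 of 3 members, where it called 16.2% of 4955 genes, from which nothing is read. Without HFD replicate 1 or HFD replicate 3, which leaves 1 HFD-fed mouse, the calls of Rgs2 and Rgs10 were lost. The log2 differences in these fits were -1.04 and -1.24 for Rgs2 and -1.02 and -1.12 for Rgs10. The share of all genes called in these fits is not given. Resident macrophages gave 89.43% and 94.79% of the UMIs of the chow-fed mice but 48.57% and 50.2% of those of the HFD-fed mice. When the stage levels of every mouse were averaged with the stage shares of the chow-fed mice, the differences were 2.549-fold for Rgs1, 1.95-fold for Rgs2 and 1.417-fold for Rgs10, where resident macrophages carry most of the weight by construction. With equal weights of the 4 stages they were 2.003-fold, 1.585-fold and 1.493-fold.

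The lower Rgs1 sum upon HFD came with both fewer resident cells with a UMI and fewer UMIs per cell. After every cell was thinned to 1000 UMIs, 90.72% and 90.24% of resident macrophages held a Rgs1 UMI on chow and 64.14% and 70.17% upon HFD. The unthinned shares were 95.68%, 95.73%, 81.66% and 87.44%, at median depths of 4215, 3871, 3782 and 4130 UMIs. For Rgs2 the thinned shares were 54.24% and 57.52% on chow against 36.55% and 43.17% upon HFD (unthinned 81.41%, 82.75%, 65.07% and 71.21%). For Rgs10 they were 59.95% and 60.12% against 44.6% and 51.49% (unthinned 88.87%, 88.7%, 77.73% and 77.95%). Thinning left out 10, 46, 23 and 16 resident cells with fewer UMIs. In monocytes a Rgs1 UMI was found in 29.23% and 38.24% of thinned cells on chow and in 21.38% and 22.49% upon HFD. The sort held no cell type known to lack these genes, so the share that free RNA gives was not measured.

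Resident macrophages of 1 mouse differed widely among themselves. The median cell held 56.7 and 44.9 Rgs1 UMIs per 10000 on chow and 12.94 and 16.83 upon HFD, while the 90th percentile was 127.9, 107, 60.03 and 52.46. The 10th percentile was 7.634 and 6.774 on chow and 0 in both HFD-fed mice. The Rgs2 medians were 7.945, 9.341, 3.443 and 4.452, and the Rgs10 medians 9.228, 9.801, 5.683 and 6.165. The cell-to-cell ranges thus overlapped between diets for each gene, although the medians did not.

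**Figure D2:**
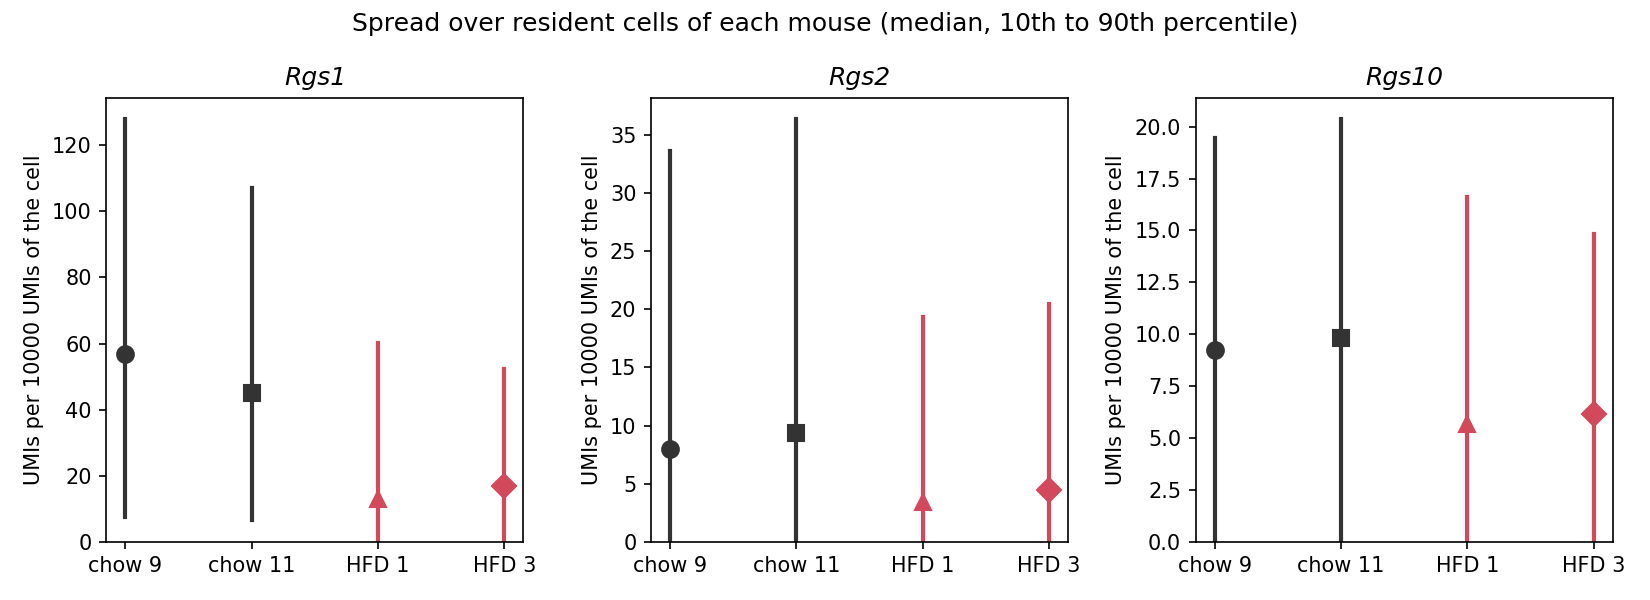
UMIs of Rgs1, Rgs2 and Rgs10 per 10000 UMIs of a cell (y axis, from 0) in the resident macrophages of each mouse (x axis, chow 9 and 11 in black, HFD 1 and 3 in red), with the median as a symbol and a line from the 10th to the 90th percentile. For Rgs1 the median is 56.7 and 44.9 on chow and 12.94 and 16.83 upon HFD, and the ranges of all mice overlap.

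The markers of the resident stage and of monocytes also differed between diets in these cells. Their part in the result was not tested, and values in C1q bands are given below. The median C1q level of resident macrophages of HFD-fed mice was 135.7 and 115.8 per 10000 against 189.4 and 198.4 on chow. The 9 resident markers, from C1qa to Lyve1, summed to 20700 and 21720 CPM on chow and to 15610 and 14500 CPM upon HFD, and each of the 9 was lower in both HFD-fed mice. The 7 monocyte markers, such as Ly6c2 and Plac8, summed to 355.1 and 543.1 CPM on chow and to 2869 and 3780 CPM upon HFD, and each of the 7 was higher.

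Resident macrophages were divided into 3 bands of equal cell number by their C1q level, with edges at 150.5 and 211.6 per 10000, a division chosen after the data were seen. In the low band Rgs1 stood at 6379 and 4806 CPM on chow and 1342 and 1971 CPM upon HFD (3.376-fold). In the middle band it stood at 7317, 6198, 3166 and 2639 CPM (2.328-fold), and in the high band at 5730, 5177, 3474 and 3468 CPM (1.571-fold). The HFD values were higher with more C1q, whereas the chow values were highest in the middle band, and the diets did not overlap in any band. Rgs2 differed 2.253-fold, 1.935-fold and 1.683-fold and Rgs10 1.404-fold, 1.323-fold and 1.172-fold from the low to the high band, also without overlap. In the low band the median C1q level still differed, at 114 and 120.4 on chow and 78.55 and 74.76 upon HFD, while in the high band it was 243.8, 242.9, 253.4 and 247.8. The change of the fold over the bands was not tested.

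When clusters of the whole transcriptome took the place of the C1q limit, the Rgs1 difference was far smaller. The cluster that shared most cells with the resident stage held 401 and 1018 cells of the chow-fed but 67 and 35 cells of the HFD-fed mice, and 1520 of all 3724 resident macrophages. The resident macrophages of both diets lay largely in different clusters. This cluster, numbered 6, held 52.36% and 55.06% of them on chow and 14.63% and 5.36% upon HFD, cluster 5 held 37.43% and 37.05% against 17.03% and 6.891%, and cluster 4 held 8.639% and 5.895% against 37.12% and 49.62%. There Rgs1 stood at 7694, 6591, 6279 and 5349 CPM (log2 -0.29, SE 0.15), Rgs2 at 1340, 1650, 940.8 and 829.7 CPM (log2 -0.74, SE 0.19) and Rgs10 at 1059, 1116, 944.7 and 1059 CPM (log2 -0.12, SE 0.18). Rgs1 and Rgs2 still did not overlap between diets in that cluster, and Rgs10 did. The clusters were built from genes that include the members and those that differ between diets, and the edgeR fit called 10 genes in it. When the resident macrophages were divided by cluster, which was chosen after the data were seen, Rgs1 stood at 3558 and 3067 CPM on chow and 1597 and 2520 CPM upon HFD in cluster 4 (1.609-fold), at 5395, 3925, 3091 and 2850 CPM in cluster 5 (1.569-fold) and at 7700, 6591, 6279 and 5349 CPM in cluster 6 (1.229-fold). Rgs2 differed 1.892-fold, 1.513-fold and 1.69-fold in these clusters, also without overlap. Rgs10 differed 1.212-fold in cluster 4 and overlapped in cluster 5 (1.091-fold). In cluster 6 it differed 1.086-fold, with HFD replicate 3 at 1059 CPM just under chow replicate 9 at 1060 CPM. The difference of Rgs1 within each of the 3 clusters was thus smaller than the 2.564-fold over all resident macrophages. Outside them, cluster 2 held 0% and 0.3786% of resident macrophages on chow and 13.97% and 23.74% upon HFD. Cluster 3 held 1.571% and 1.082% against 15.72% and 13.17%, and member values are not given for either.

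Genes induced within minutes by stimulation or cell handling were lower upon HFD in the same cells. The 22 immediate-early and heat-shock genes of a fixed list, among them Fos, Atf3 and Hspa1a, summed to 31250 and 31900 CPM in resident macrophages on chow and to 19150 and 16870 CPM upon HFD. Of the 22 genes 20 were lower in both HFD-fed mice, and the edgeR test called 14 lower and 0 higher at an FDR of 1%, where it called 10.5% of all genes, 271 higher and 260 lower (median log2 -1.01 for the list, -0.02 for all genes). In monocytes the edgeR test and DESeq2 called 0 of the 22, of which 10 had an unadjusted p under 0.05. Rgs1 and Rgs2 were higher in resident cells with more of these transcripts, in each of the 4 mice. In 3 bands of the summed list (edges at 200.8 and 336 per 10000), also chosen after the data were seen, Rgs1 stood at 4341, 3509, 1381 and 2118 CPM in the low, 5939, 5306, 3552 and 2768 CPM in the middle and 8619, 6757, 4846 and 5141 CPM in the high band. Rgs2 stood at 773, 940.3, 435.2 and 642 CPM in the low, 1116, 1371, 1028 and 956.8 CPM in the middle and 1790, 2020, 1250 and 1356 CPM in the high band. Within the bands both HFD-fed mice lay below both chow-fed mice for each member, by 2.244-fold, 1.779-fold and 1.539-fold for Rgs1, 1.59-fold, 1.253-fold and 1.462-fold for Rgs2, and 1.428-fold, 1.272-fold and 1.306-fold for Rgs10. Within the bands the median level of the list was still lower in both HFD-fed mice, at 145.3 and 151.4 per 10000 on chow against 124.9 and 124.6 in the low band, 264.9 and 269.2 against 245.3 and 251.6 in the middle band and 445.8 and 444 against 436 and 415.6 in the high band.

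**Figure D3:**
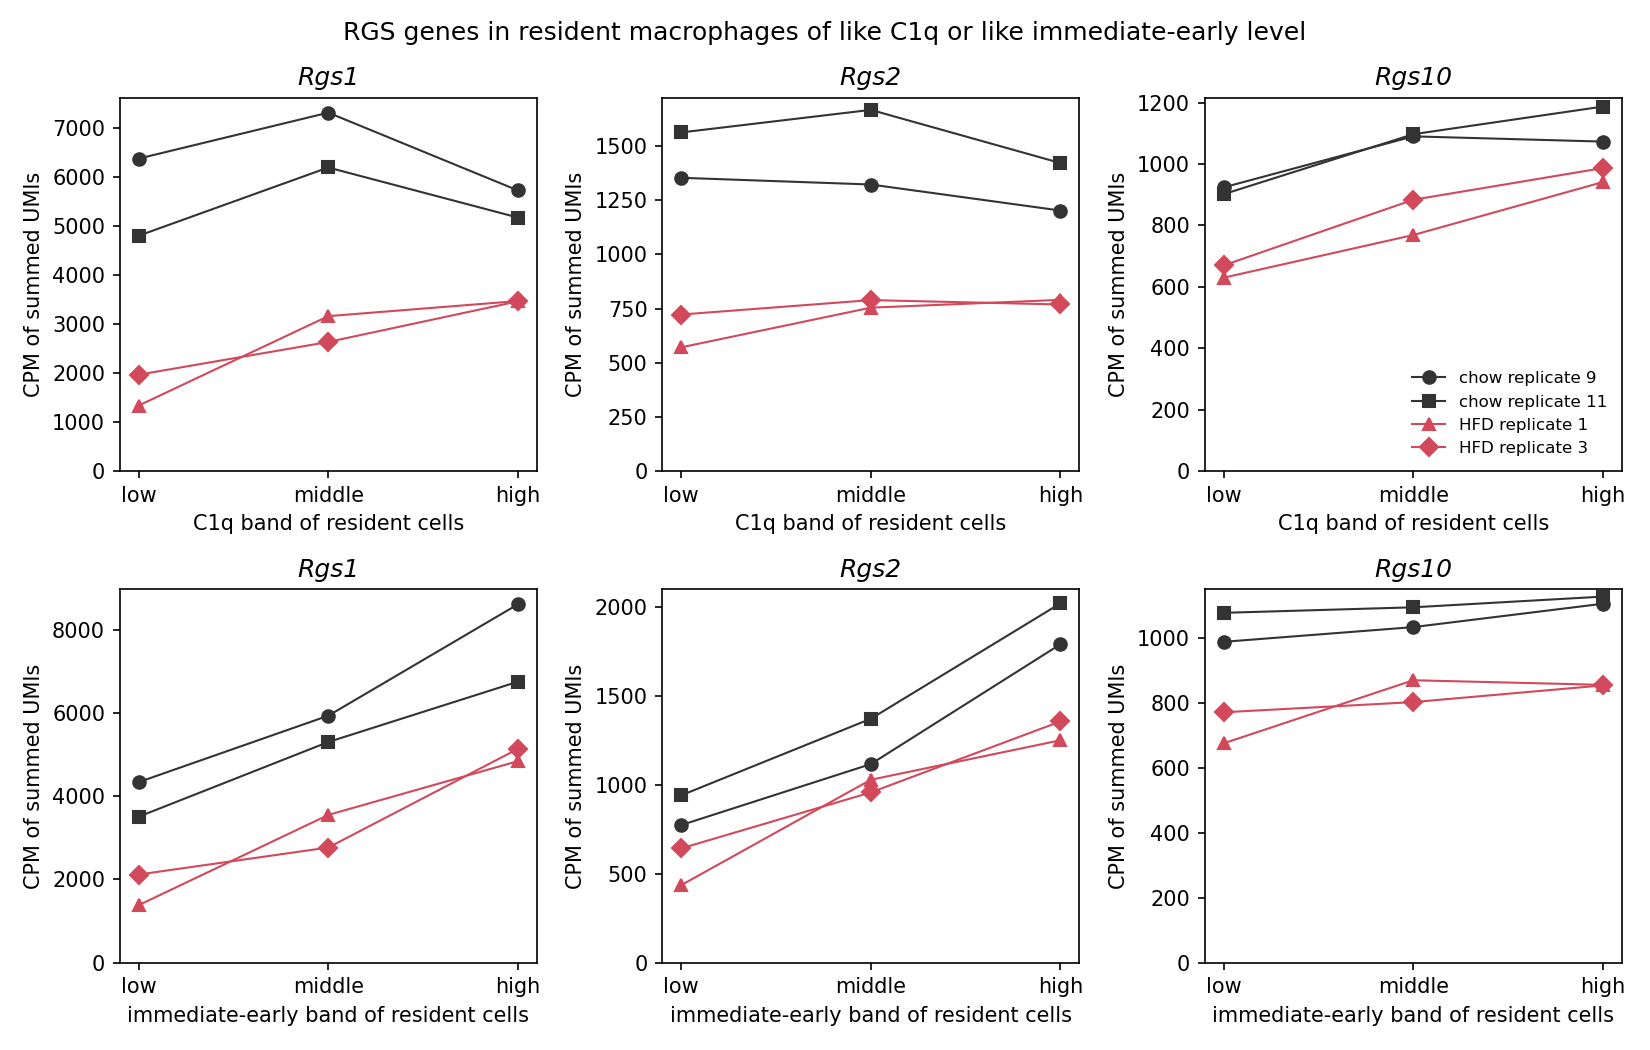
CPM of Rgs1, Rgs2 and Rgs10 (y axes, from 0) in resident macrophages divided into 3 bands of C1q level (upper row) or of the summed immediate-early and heat-shock list (lower row), 1 line per mouse, chow in black and HFD in red. Both red lines lie below both black lines in each band, and the Rgs1 difference runs from 3.376-fold in the low to 1.571-fold in the high C1q band.

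Transcripts of B and plasma cells also differed between diets. The 3 of 5 such markers in the matrix, Igha, Jchain and Cd79a, summed to 2637 and 3080 CPM in resident macrophages on chow and to 136.7 and 102.7 CPM upon HFD, and in monocytes to 40600 and 26860 CPM against 8593 and 6721 CPM. In the resident macrophages without any UMI of these genes (326, 665, 280 and 438 cells), the differences were as large, at 2.645-fold for Rgs1, 1.985-fold for Rgs2 and 1.404-fold for Rgs10. Dendritic cell markers summed to 50.48 and 52.96 CPM in resident macrophages on chow and to 184.7 and 166.9 CPM upon HFD, with 2 of 6 higher in both HFD-fed mice. Upon HFD most of this sum was Ccr7, a chemokine receptor of migrating dendritic cells. Ccr7 stood at 13.71 and 10.62 CPM on chow against 150.2 and 121.6 CPM upon HFD (log2 3.36, SE 0.22, adjusted p = 9.53e-05 in edgeR). On chow the largest part was Cd209a, at 24.51 and 27.08 CPM against 15.61 and 28.18 CPM upon HFD. Flt3 and Zbtb46 stood at 0.7134 to 2.626 CPM. T and NK cell markers summed to 2.918 and 3.053 CPM on chow against 6.998 and 15.69 CPM upon HFD, with 2 of 5 higher. Both neutrophil markers in the matrix summed to 11.96 and 21.5 CPM against 29.07 and 29.61 CPM and epithelial markers to 2.334 and 8.893 CPM against 18.3 and 12.13 CPM. Siglecf, the only eosinophil and mast cell marker in the matrix, stood at 0.7134 to 3.768 CPM. The part of these markers in the member differences was not tested, and only the values in cells without B and plasma cell transcripts are given.

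Other RGS genes were scarce in these cells, and 7 of 18 were in the matrix. Rgs3, which also acts on Gi and Gq subunits, fell in resident macrophages upon HFD, from 23.64 and 26.41 CPM to 8.614 and 3.567 CPM (log2 -2.28, SE 0.37, adjusted p = 0.00422 in the edgeR quasi-likelihood test with Benjamini-Hochberg adjustment over all genes), on 16 and 10 UMIs in the HFD-fed mice. The call was lost in the resident cluster (log2 -2.04), without HFD replicate 1 (-2.97) and without HFD replicate 3 (-1.65). Rgs19, a regulator of Gi-family subunits, stood at 55.15 and 69.15 CPM on chow against 74.29 and 83.11 CPM upon HFD (log2 0.19, SE 0.17, adjusted p = 0.469 in edgeR). Rgs18, known from platelets and myeloid cells, had its higher level early in differentiation. It was higher in monocytes (105.2, 64.2, 38.28 and 50.57 CPM in chow replicates 9 and 11 and HFD replicates 1 and 3) than in resident macrophages (11.67, 15.26, 9.152 and 7.134 CPM), with a log2 fold change of 2.43 (SE 0.28, adjusted p = 3.255e-05 in edgeR). Rgs14, a scaffold that also binds Rap and Ras proteins, stood at 17.81 to 47.83 CPM in monocytes and 5.383 to 11.38 CPM in resident macrophages, on 6 to 72 UMIs per sum. Rgs5, Rgs9 and Rgs12 held at most 17 UMIs in any mouse.

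The wider signaling list of receptors, G-protein subunits, effectors and other regulators held 115 genes, of which 78 were in the matrix. In resident macrophages 42 were tested, 3 were higher and 8 were lower upon HFD at an FDR of 1%, where 10.5% of all 5065 genes were called, with a median log2 difference of -0.25 against -0.02 over all genes. Of 17 receptors 3 were higher and 5 lower, of 12 effectors and other regulators 0 were higher and 2 lower, and 1 of 2 other RGS genes was lower. None of the 6 alpha subunits and 5 beta and gamma subunits tested in resident macrophages passed the edgeR test, although 4 and 2 of them had an unadjusted p under 0.05, and DESeq2 also called 0 of either group. Gnai2, the Gi subunit on which RGS1 and RGS10 can act, stood at 281.3 and 285.6 CPM on chow and 373.6 and 363.5 CPM upon HFD (log2 0.23, SE 0.13, adjusted p = 0.226 in edgeR). Gnaq, the target of RGS2, stood at 63.32 and 71.68 against 61.91 and 54.22 CPM (log2 -0.37, SE 0.17, adjusted p = 0.152 in edgeR). Gnai2 and Gnaq were named after their values were seen. Ccr2 and Cx3cr1 of this list are also among the monocyte and resident markers above. The number of calls over the list, 11 in all with edgeR and 11 with DESeq2, dropped to 3 without HFD replicate 1 and to 0 without HFD replicate 3.

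The receptors that rose in resident macrophages were Gpr35, Ltb4r1 and Ccr2. Gpr35, a receptor for tryptophan metabolites and other small ligands in the gut, went from 25.68 and 20.97 CPM to 76.45 and 90.96 CPM (log2 1.72, SE 0.19, adjusted p = 0.000856 in edgeR). The leukotriene B4 receptor Ltb4r1 went from 15.47 and 16.06 CPM to 53.83 and 37.1 CPM (log2 1.36, SE 0.25, adjusted p = 0.00692 in edgeR). Ccr2, the receptor by which monocytes leave the bone marrow, went from 231.1 and 283.5 CPM to 491.5 and 468.7 CPM (log2 0.75, SE 0.14, adjusted p = 0.00825 in edgeR). In the resident cluster both Gpr35 (log2 -0.37) and Ccr2 (log2 -0.37) turned in direction. In resident macrophages the calls of all 3 were lost without HFD replicate 1 or HFD replicate 3, that of Ltb4r1 also without chow replicate 11 and that of Ccr2 also without chow replicate 9. Without HFD replicate 1 and HFD replicate 3 the log2 differences were 1.81 and 1.62 for Gpr35 and 1.07 and 1.66 for Ltb4r1. Those of Ccr2 were 0.70 and 0.82. Without the chow-fed mice named, they were 1.37 for Ltb4r1 and 0.62 for Ccr2.

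Among the genes that fell were the receptors of the complement fragments. C3ar1 went from 574.5 and 521.2 CPM to 189.5 and 131.6 CPM (log2 -1.92, SE 0.20, adjusted p = 0.000614 in edgeR). Prkar1b, a regulatory subunit of the cAMP-dependent kinase, went from 33.85 and 24.82 CPM to 3.23 and 4.637 CPM (log2 -2.98, SE 0.34, adjusted p = 0.000966 in edgeR). In the resident cluster neither passed, with log2 differences of -0.42 for C3ar1 and -2.09 for Prkar1b. The calls were also lost without HFD replicate 3 (log2 -1.64 for C3ar1 and -3.27 for Prkar1b) and, for Prkar1b, without HFD replicate 1 (-2.80). Named after their values were seen, C5ar1 (log2 -1.44), the fractalkine receptor Cx3cr1 (-1.70), the UDP receptor P2ry6 (-1.01) and the phosphodiesterase Pde3b (-1.73) were also called lower. In monocytes 37 genes of the list were tested and Cx3cr1 alone passed, where 1.08% of all 4544 genes were called, going from 157.8 and 220.1 CPM to 56.98 and 60.49 CPM (log2 -1.80, SE 0.30, adjusted p = 0.000815 in edgeR). In intermediate macrophages, where 2.31% of all 4588 genes were called, 40 were tested and 2 fell, Cx3cr1 (log2 -2.35, SE 0.52, adjusted p = 0.00136 in edgeR) and C5ar1 (log2 -2.46, SE 0.32, adjusted p = 6.963e-09 in edgeR). The intermediate call of Cx3cr1 was lost with DESeq2, with at least 2 Ly6c2 UMIs and without chow replicate 11, HFD replicate 1 or HFD replicate 3 (log2 -2.58 to -1.79), and its monocyte call with at least 2 Ly6c2 UMIs (log2 -1.49). Over all cells 5 of 42 were higher and 12 lower, where 16.2% of all 4955 genes were called (380 higher and 425 lower). The largest changes there were those of Adora2b (log2 1.83), Ltb4r1 (1.67) and Gpr35 (1.65) among the rises and of C3ar1 (-2.69), Cx3cr1 (-2.37) and C5ar1 (-2.03) among the falls. The calls of Adora2b and Ltb4r1 were lost without HFD replicate 1 (log2 1.745 and 1.53) or HFD replicate 3 (1.92 and 1.82). That of Gpr35 was lost without HFD replicate 3 (1.64).

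**Figure D4:**
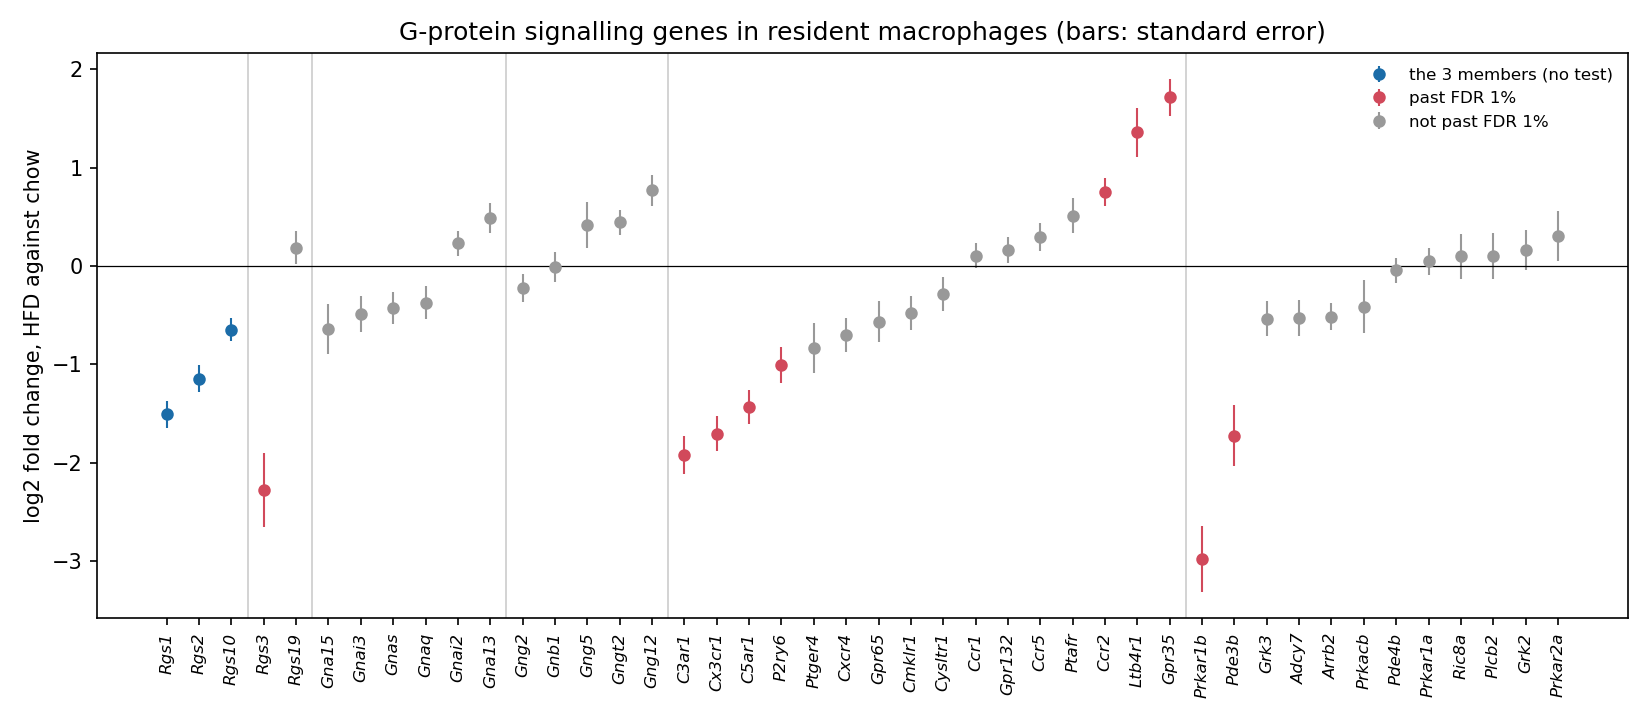
Log2 fold change of HFD against chow in resident macrophages (y axis) for the 3 members in blue and the tested genes of the signaling list, 1 of them left out (x axis; from left to right other RGS genes, alpha subunits, beta and gamma subunits, receptors, effectors and other regulators), with standard errors as bars and genes past an FDR of 1% in red. Rgs3 at -2.28 lies below the 3 members at -1.51, -1.15 and -0.65, and the receptors spread from -1.92 to 1.72.

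Over differentiation, 43 genes of the list were tested between monocytes and resident macrophages, of which 4 were higher in monocytes and 13 in resident macrophages (edgeR with a term for each mouse, FDR of 1%), where 17.4% of all 5030 genes were called (429 and 444). Ltb4r1 (log2 2.74, SE 0.25) and Ccr2 (log2 1.23, SE 0.15) were higher in monocytes, as was Rgs18. C3ar1 (log2 -3.91, SE 0.30) and C5ar1 (log2 -2.28, SE 0.23) were higher in resident macrophages. Prkar1b had 0 UMIs in the monocytes of each mouse and stood at 33.85 and 24.82 CPM in resident macrophages on chow and at 3.23 and 4.637 CPM upon HFD.

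The genes most like each member were sought among 2540 genes with a mean of at least 50 CPM, over the 16 sums of 4 stages and 4 mice, which share mice, depth and diet. For Rgs1 these were Herpud1 (Pearson r = 0.946), a gene of the endoplasmic reticulum stress response, the lysosomal protease Lgmn (0.895), the tetraspanin Cd9 (0.891), Ms4a7 (0.884) and C3ar1 (0.883). For Rgs10 they were the apolipoprotein Apoe (0.926), C3ar1 (0.874), Lgmn (0.866), Ms4a7 (0.852) and the chemokine Cxcl1 (0.831). Rgs10 and Rgs1 correlated at 0.795 with each other and shared 3 of these 5 genes. For Rgs2 they were the immediate-early genes Jun (0.832) and Dusp1 (0.826), followed by Mat2a (0.791), Sat1 (0.785) and Klhl24 (0.782). Rgs2 correlated less with Rgs1 (0.294) and Rgs10 (0.438). These correlations describe the sums and carry no test.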

How the data were processed

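Reads were assigned by the authors to Ensembl release 97 transcripts of the mouse by pseudo-alignment (kallisto 0.46.0, with bustools 0.39.2 for barcodes, per the labels). Per the methods of the study, cells and genes of poor quality were filtered, and cells not resembling macrophages or monocytes of a reference were taken out. The deposited matrix holds UMI counts, and these were used here. Depth was 3824228 to 7947893 UMIs per mouse. Symbols came from GENCODE M21 for 11819 of 11820 genes. The mouse of a cell was taken from the end of its name, and replicates were separate mice.

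C1q and MHC II limits were Otsu thresholds (scikit-image, version 0.26.0) on log10(UMIs per 10000 + 1) over all cells. Doublets were called by Scrublet (scanpy, version 1.11.5). The 38 marked cells (0.701%) stayed in, except in an alternative. Mice shared 2 to 6 cell barcodes per pair. UMI counts were summed per mouse and stage with at least 20 cells in each mouse, and genes above 1 CPM in at least 2 of 4 sums and with a UMI in at least 5% of cells were tested with edgeR (version 4.0.16) by TMM and the quasi-likelihood test, with Benjamini-Hochberg adjustment over all genes tested and an FDR of 1%. Alternatives were DESeq2 (version 1.42.0), RLE factors, the likelihood-ratio test, no filter, moved limits, 6 Ward clusters on 8 components (scran, version 1.30.0), and each mouse left out. Each SE of an edgeR log2 difference is the absolute difference divided by the square root of its quasi-likelihood F statistic. With 2 mice against 2, an exact permutation test cannot go below p = 0.33, so CPM values carry no such test.

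Genes named were the members, every other RGS gene, up to 3 rises and 3 falls of the signaling list per fit whose mice did not overlap, and the 5 genes most like each member by Pearson correlation of log2(CPM + 1). The members and lists were chosen with earlier results of these data known. The results of 1 gene of the signaling list are not reported here.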

Additional observations from a re-analysis of the deposited data

Results flagged for a closer look

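Ccr2, the chemokine receptor of monocytes, was higher in both HFD-fed than in both chow-fed mice in resident macrophages (231.1 and 283.5 CPM on chow, 491.5 and 468.7 CPM upon HFD) and lower in both in intermediate macrophages (944.5 and 774.6 CPM on chow, 485.3 and 652.9 CPM upon HFD). Its log2 fold changes differed by 1.37 between these stages. The difference was not tested, and the one in intermediate macrophages did not pass the edgeR test (adjusted p = 0.173).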

How the results depend on the processing

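The log2 difference of HFD against chow stayed negative for each member under each alternative run in monocytes (13 per gene), intermediate (11) and resident macrophages (12) and all cells (9). With clusters in place of the stages, the resident values of Rgs1, Rgs2 and Rgs10 were -0.29, -0.74 and -0.12, Gpr35 (-0.37) and Ccr2 (-0.37) turned in direction, and 0 genes of the signaling list were called with edgeR. The cause was not tested. Without the filter on low counts the intermediate values were -0.28, -0.22 and -0.24 and the value of Rgs10 over all cells was -0.99, while the median of all genes in intermediate macrophages moved from 0.11 to 0.41. Plain CPM in place of TMM moved the median of all genes from -0.02 to 0.13 in resident macrophages and from -0.01 to 0.21 over all cells.

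With 1 mouse left out in turn, Rgs1 ranged from -1.24 to -0.81 in monocytes, -0.82 to -0.37 in intermediate macrophages, -1.65 to -1.37 in resident macrophages and -2.24 to -2.06 over all cells. Rgs2 ranged from -0.79 to -0.09, -0.79 to -0.28, -1.27 to -1.03 and -1.29 to -1.04 in the same order, and Rgs10 from -0.88 to -0.37, -0.84 to -0.37, -0.68 to -0.63 and -1.16 to -1.02. The signaling-list calls ranged from 1 to 2 in monocytes and in intermediate macrophages, 0 to 12 in resident macrophages, 4 to 15 over all cells and 9 to 19 between monocytes and resident macrophages.

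In monocytes the list gave 3 calls with the likelihood-ratio test, 2 without the filter, 2 with lower limits, 2 with clusters and 0 with at least 2 Ly6c2 UMIs. In intermediate macrophages it gave 1 with DESeq2, 4 with the likelihood-ratio test and 1 with at least 2 Ly6c2 UMIs. With equal weights of the 4 stages the log2 differences at fixed shares were -1.002 for Rgs1, -0.66 for Rgs2 and -0.58 for Rgs10.

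Alternatives chosen after seeing the data are log2 ratios of mean CPM. In resident macrophages, Rgs1 gave -1.76, -1.22 and -0.65 in the C1q bands from low to high and -1.17, -0.83 and -0.62 in the immediate-early bands. Rgs2 gave -1.17 and -0.75 in the low and high C1q bands and -0.67, -0.33 and -0.55 in the immediate-early bands. Rgs10 gave -0.40 and -0.23 in the middle and high C1q bands, -0.35 and -0.39 in the middle and high immediate-early bands and -0.55 as a mean over cells. In the resident cells of clusters 4, 5 and 6, Rgs1 gave -0.69, -0.65 and -0.30 and Rgs10 -0.28, -0.13 and -0.12, and Rgs2 gave -0.60 and -0.76 in clusters 5 and 6. Rgs1 in monocytes without a C1q UMI gave -0.14. The causes were not tested.

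No paired analysis was possible because the diets share no replicate number. Clusters and lower limits left under 20 intermediate cells in a chow-fed mouse and gave no value there. Intermediate macrophages and monocytes on chow rest on 25 to 68 cells per mouse, which limits what can be seen in them.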
